A study of Mus musculus with 2 samples.

Results

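Transcripts of 10 genes were followed across the cells of healing mouse skin: the matrix metalloproteinases Mmp2, Mmp3, Mmp9, Mmp12, Mmp13, Mmp14 and Mmp19, and the tissue inhibitors of metalloproteinases Timp1, Timp2 and Timp3. They were taken by symbol from the gene lists of both libraries, which hold 27998 genes each, and all 10 were present. The 7 proteases and 3 inhibitors were not chosen by a threshold on their values.

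Both groups were large dorsal skin wounds, 1.8 cm across, in wild-type male C57BL/6J mice of 6 to 8 weeks. WT_LW wounds received PBS on days 0, 3 and 6 according to the sample labels, although the study's text elsewhere gives a control oligonucleotide to a group of that name. TLR9agonist_LW wounds received ODN2395, a CpG oligodeoxynucleotide that activates Toll-like receptor 9 (TLR9), on the same days. The healed skin was collected 2 days after the scab detached, the cells of several mice were pooled, and 1 droplet library was made per group, so the comparison asks how the wound cells differed when TLR9 had been activated, but the treatment, the mice pooled and the preparation cannot be told apart. No test between groups was possible, and every interval given here is a 95% interval of counting error alone.

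The analysis kept 10395 cells from the WT_LW library and 11811 from the other, with medians of 5519 and 6080 unique molecular identifiers (UMIs, 1 per captured RNA molecule). Fixed marker genes placed 79.1% and 81.2% of them in a cell class. In fibroblasts (7 markers) and keratinocytes (11) every marker was found in at least 10% of the cells of each library, and in macrophages and dendritic cells 8 of 9 were. Of the UMIs of classed cells, fibroblasts held 23.3% in WT_LW and 34.4% in TLR9agonist_LW, keratinocytes 13.6% and 30.4%, macrophages and dendritic cells 20.6% and 8.23%, and T cells 21.5% and 16.2%. Keratinocytes were also deeper in TLR9agonist_LW, with a median of 21744 UMIs against 11840. The libraries shared 47 cell barcodes.

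Matrix metalloproteinases are zinc enzymes that cut collagens, elastin, laminins and other matrix proteins, and most are secreted as inactive precursors. TIMPs bind the active site and block it, so matrix turnover in a wound depends on the amounts of both. In healing skin the proteases free keratinocytes from the matrix they crawl over, open the tissue to vessels and leukocytes, and later remodel the scar. RNA counts measure neither secretion nor activation of these enzymes.

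By the GENCODE annotation of build GRCm38, Mmp13, Mmp12 and Mmp3 lie on the plus strand of chromosome 9 within 183 kb, at 7272514 to 7283331, 7344381 to 7369499 and 7445822 to 7455975. The other members are scattered. Mmp2 lies on chromosome 8 at 92827291 to 92853420, Mmp9 on chromosome 2 at 164940780 to 164955850, Mmp14 on chromosome 14 at 54431612 to 54445364 and Mmp19 on chromosome 10 at 128790910 to 128800824. Timp1 is on chromosome X at 20870166 to 20874735, Timp2 on chromosome 11 at 118301069 to 118355740 and Timp3 on chromosome 10 at 86300372 to 86349506. All are protein coding. Timp1 and Timp3 each lie across a synapsin gene on the opposite strand, Syn1 and Syn3. The end of Mmp12 overlaps Mmp1b, and Mmp19 overlaps Tmem198b and Gm47093, all on the opposite strand. Timp2 overlaps Cep295nl on its own strand, so reads of this pair may have been shared. For the opposite-strand pairs this depends on whether the counting kept the strand of a read, which was not examined.

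The stretches just before the starts of the 3 chromosome 9 members are shown because Mmp3 and Mmp13 had the highest ratios between the libraries over all classed cells and Mmp12 the lowest, and because each of these stretches holds the same motif. They are the 250 bases before the RefSeq start (GRCm38.p6, plus strand), at chr9:7445572-7445821 for Mmp3, chr9:7347124-7347373 for the second RefSeq entry of Mmp12 and chr9:7272264-7272513 for Mmp13. Capitals mark the letters TGANTCA, the site bound by AP-1, a Fos and Jun dimer.

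Mmp3: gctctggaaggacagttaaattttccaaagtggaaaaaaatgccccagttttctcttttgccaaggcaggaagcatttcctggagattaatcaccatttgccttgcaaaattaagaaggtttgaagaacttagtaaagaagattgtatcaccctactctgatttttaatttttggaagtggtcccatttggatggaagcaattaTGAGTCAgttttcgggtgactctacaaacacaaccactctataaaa
Mmp12: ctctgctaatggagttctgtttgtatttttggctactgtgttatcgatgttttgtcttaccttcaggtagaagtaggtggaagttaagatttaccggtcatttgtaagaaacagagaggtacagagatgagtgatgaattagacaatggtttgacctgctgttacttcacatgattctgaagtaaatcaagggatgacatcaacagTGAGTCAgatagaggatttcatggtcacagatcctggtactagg
Mmp13: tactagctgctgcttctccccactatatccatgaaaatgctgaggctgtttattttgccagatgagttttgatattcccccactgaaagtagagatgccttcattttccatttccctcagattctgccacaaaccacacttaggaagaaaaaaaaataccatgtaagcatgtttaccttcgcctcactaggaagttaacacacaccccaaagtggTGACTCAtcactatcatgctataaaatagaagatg

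The match began 46 bases before the start of Mmp3, 44 bases before that of Mmp12 and 35 bases before that of Mmp13. Of the 10 members 7 had a RefSeq promoter entry, of 250 bases before to 50 after the start, and 3 of their 8 entries held a match. The first entry of Mmp12, at chr9:7344147-7344446, held none. Of all 32851 promoters of that length, 7.81% held TGANTCA, which reads the same on both strands except for its middle base. A match describes the letters and says nothing of binding.

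The cells that held each gene came next. Levels are given in CPM, the UMIs of a gene for every 1000000 UMIs of the class. In this 3′ method 1 end is counted per molecule, so a level is not divided by gene length. Classes with at least 50 cells in each library were ranked.

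**Figure D1:**
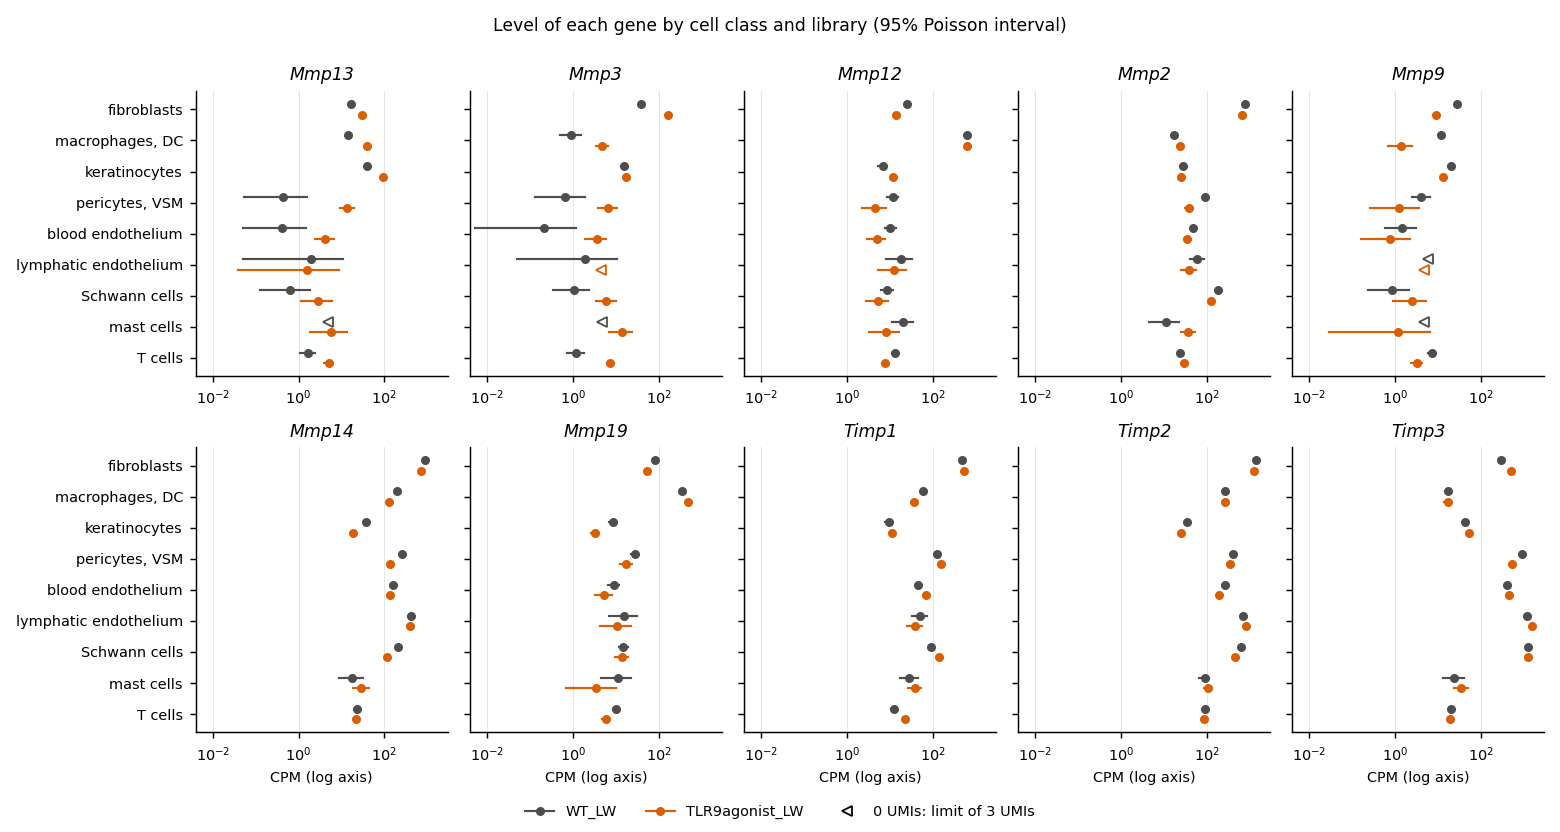
Level of each gene in CPM (log axis) in 9 cell classes, WT_LW in grey and TLR9agonist_LW in orange, with 95% Poisson intervals; open triangles mark the limit of 3 UMIs where none was counted. Mmp12 and Mmp19 were highest in macrophages and dendritic cells, Mmp2, Mmp3, Mmp14, Timp1 and Timp2 in fibroblasts, and Timp3 in Schwann cells and lymphatic endothelium.

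Fibroblasts led for Mmp2, Mmp14, Mmp3, Timp1 and Timp2 in both libraries, macrophages and dendritic cells for Mmp12 and Mmp19, and keratinocytes for Mmp13. The leading class was thus shared by both libraries for 8 of 10 members, although most Mmp13 UMIs of WT_LW keratinocytes came from a single cell. The leading class differed for Mmp9, from fibroblasts in WT_LW to keratinocytes in TLR9agonist_LW, and for Timp3, from Schwann cells to lymphatic endothelium. A single keratinocyte held a large part of the Mmp9 UMIs of that class in each library. With equal weight per cell the leading class was shared for all 10 members.

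The gelatinase Mmp2 (gelatinase A) and Mmp14 (the membrane-bound MT1-MMP, which with Timp2 activates the Mmp2 precursor) belonged to the fibroblasts. Mmp2 stood at 786 CPM of fibroblasts in WT_LW (interval 772 to 799) and 658 (650 to 667) in TLR9agonist_LW, 4.41 and 5.23 times the next class, Schwann cells. Mmp14 stood at 901 (886 to 915) and 700.2 (691 to 709), 2.20 and 1.81 times the level of lymphatic endothelium. In WT_LW pericytes came next at 251, above Schwann cells and macrophages, whose intervals overlapped. In TLR9agonist_LW blood endothelium, pericytes, macrophages and Schwann cells, between 115 and 133, were not resolved from their neighbours in that order. Timp2, the inhibitor that forms the complex with Mmp14, had the most UMIs of the members over all gated cells, and stood at 1397 (1379 to 1415) and 1278 (1266 to 1290) CPM in fibroblasts. Lymphatic endothelium was next at 695 and 820, and in WT_LW it was not resolved from Schwann cells at 637.

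Mmp12 (macrophage elastase) had the largest ratio of the leading to the next class. Its level in macrophages and dendritic cells, 637 (625 to 650) in WT_LW and 624 (607 to 642) in TLR9agonist_LW, was 24.8 and 45.8 times that of fibroblasts, the next class. Mmp19, a secreted protease also made by monocytes, stood at 355 (345 to 364) and 497 (482 to 512) in the same class, 4.38 and 9.42 times the fibroblast level.

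Timp3, the inhibitor that stays bound to the matrix and also blocks ADAM proteases, was found across the structural cells. Schwann cells held 1229 (1198 to 1261) and 1225 (1182 to 1270) CPM, and 97.0% and 98.0% of them had at least 1 UMI. Lymphatic endothelium held 1166 (1073 to 1264) and 1522 (1429 to 1620), from only 58 and 53 cells. In WT_LW the ratio of the leading to the next class was 1.05 (0.968 to 1.15), so these neighbours did not differ beyond counting error, whereas in TLR9agonist_LW it was 1.24 (1.15 to 1.34). Pericytes and vascular smooth muscle stood at 903 in WT_LW and 532 in TLR9agonist_LW, and blood endothelium at 397 and 443. Macrophages and dendritic cells, at 16.6 in both, were lowest.

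Timp1 led in fibroblasts at 482 (472 to 492) and 522 (515 to 530), with pericytes next at 123 and 154. Pericytes and Schwann cells overlapped in their intervals in TLR9agonist_LW, where Schwann cells stood at 142.

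Some of the low levels were no higher than those in cells that should lack the gene. T cells, which are not known as a source of fibroblast genes, served as the background of free RNA. The fibroblast markers reached 1.82 to 2.72% of their fibroblast level in T cells of WT_LW and 2.55 to 4.85% in those of TLR9agonist_LW, and the keratinocyte markers 1.06 to 2.21% and 2.84 to 8.33%. Mmp3 in T cells was 4.58% of its fibroblast level in TLR9agonist_LW, within the range of the fibroblast markers, and 3.00% in WT_LW, above it. Several other members lay above that range in both libraries, Timp2 among them at 6.55% in WT_LW and 6.58% in TLR9agonist_LW. Of these, Mmp12 and Mmp19 were led by macrophages and dendritic cells. T cells held 2.08% and 2.83% of that class's level in WT_LW and 1.24% and 1.21% in TLR9agonist_LW. The markers of that class reached 1.57 to 8.16% and 0.74 to 3.25%. For Timp2 and Mmp9 the T cell levels exceeded the fibroblast marker range, so they are a less certain measure of background. Levels at or below those of T cells are read here as background. Among fibroblasts, keratinocytes and macrophages and dendritic cells, those in both libraries were Mmp2, Mmp3 and Timp3 in macrophages and dendritic cells, and Mmp19, Timp1 and Timp2 in keratinocytes. In WT_LW Mmp12 in keratinocytes was added, and in TLR9agonist_LW Mmp2 and Mmp14 in keratinocytes and Mmp9 in macrophages and dendritic cells. Of the other ranked classes, Schwann cells, pericytes and blood endothelium also held no more Mmp3, Mmp9 and Mmp12 than T cells in both libraries. T cells of the 2 libraries held 1.19 and 7.57 CPM of Mmp3, 1.63 and 5.01 of Mmp13, 13.2 and 7.76 of Mmp12 and 7.21 and 3.19 of Mmp9.

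The UMIs of a gene over all classed cells follow both the level in each class and the size of the class. Of Mmp12 UMIs, macrophages and dendritic cells held 91.5% in WT_LW and 83.5% in TLR9agonist_LW. Fibroblasts held 69.6% of Mmp14 UMIs in WT_LW and 87.7% in TLR9agonist_LW, 76.97% and 89.6% of Timp1, and 65.8% and 84.9% of Timp2. Timp3 was spread most evenly in WT_LW, with 31.5% in Schwann cells, 27.2% in fibroblasts and 22.4% in pericytes. In TLR9agonist_LW fibroblasts held 65.1% of it.

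**Figure D2:**
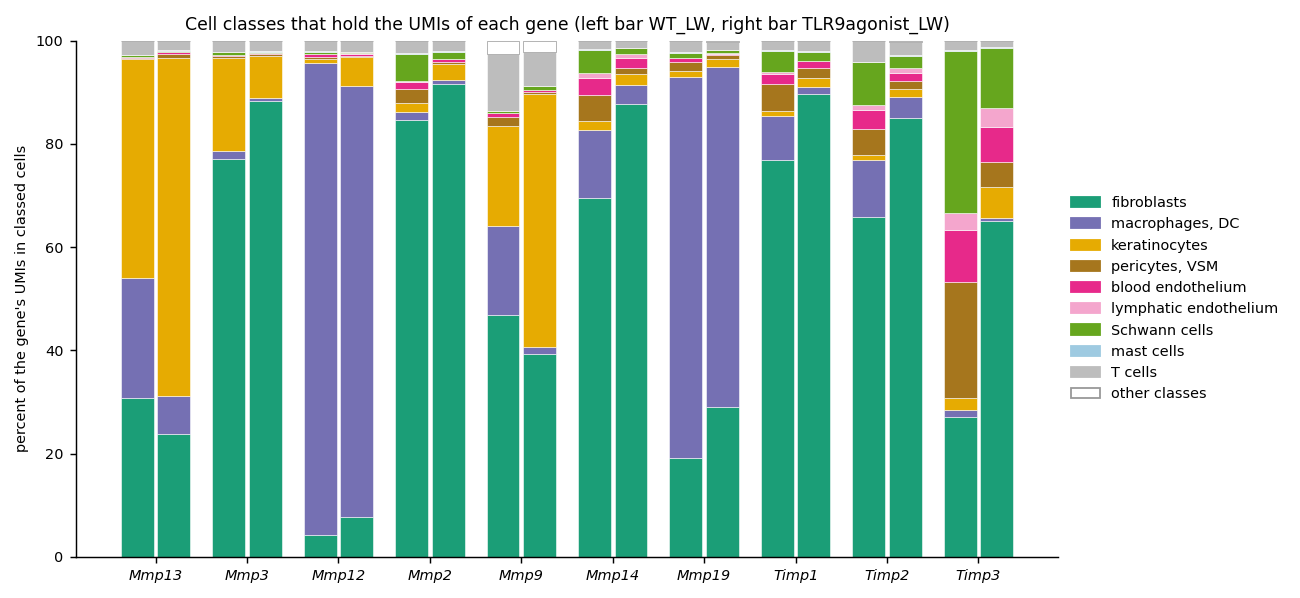
Share of each gene's UMIs (percent of its UMIs in classed cells) held by each class, left bar WT_LW and right bar TLR9agonist_LW. The fibroblast share of Timp3 was 27.2% in WT_LW and 65.1% in TLR9agonist_LW, and Mmp12 and Mmp19 stayed mainly with macrophages and dendritic cells.

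The libraries were then compared gene by gene. Ratios are log2 of the TLR9agonist_LW level over the WT_LW level, set relative to the median gene of the class, because that median itself lay at -0.40 over all classed cells, -0.30 in fibroblasts, -0.21 in macrophages and dendritic cells and -0.50 in keratinocytes. A member with a relative log2 ratio of at least 1 in either direction is called past 2-fold. This is a limit of size and not a test, and all members passed the minimum of 50 UMIs in these scopes.

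**Figure D3:**
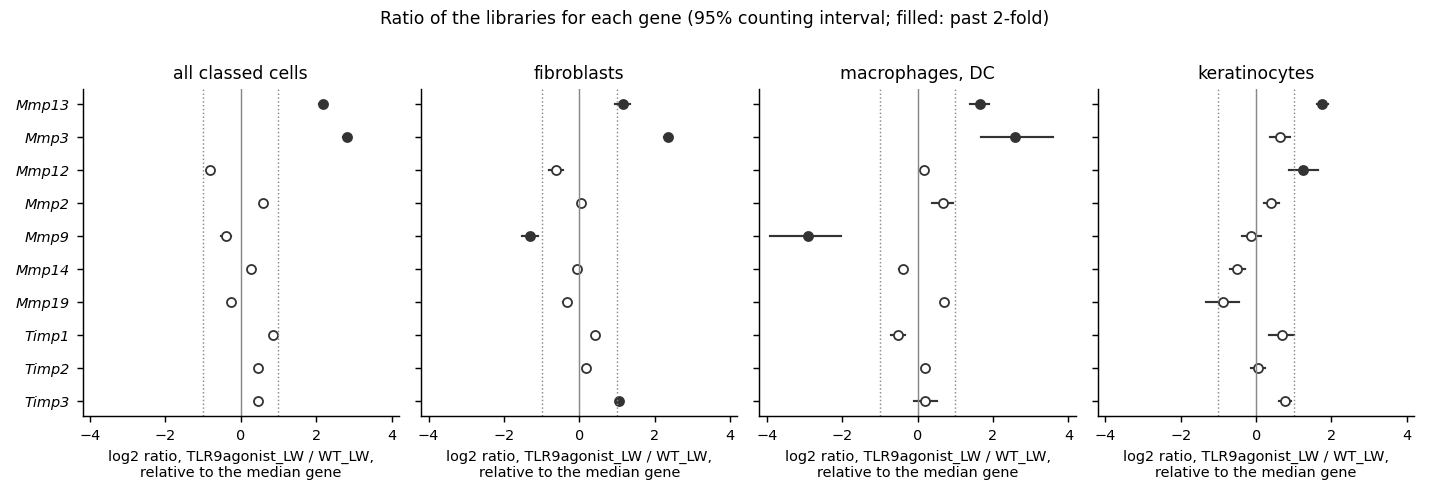
Log2 ratio of TLR9agonist_LW over WT_LW relative to the median gene, with 95% counting intervals, for all classed cells and 3 classes; filled points lie past 2-fold (dotted lines). Mmp13 lay past 2-fold higher in every panel, and Mmp3 in every panel except keratinocytes.

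Over all classed cells, 2 of 10 members were past 2-fold, both higher in TLR9agonist_LW. The background was 12.2% of 15182 genes past 2-fold in either direction and 7.27% higher. The median member lay at 0.46. Mmp3 (stromelysin-1, which cuts many matrix proteins and activates collagenase precursors) stood at 12.02 CPM in WT_LW and 64.4 in TLR9agonist_LW, a relative log2 ratio of 2.82. Mmp13 (collagenase-3, the main interstitial collagenase of the mouse) stood at 12.7 and 43.9, a ratio of 2.18. Mmp12 had the lowest ratio, -0.82, from 143 and 61.5 CPM.

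Levels and class shares were then exchanged between the libraries to see which of them carried these values, as plain ratios of CPM. With the levels of TLR9agonist_LW and the class shares of WT_LW, Mmp3 kept a log2 ratio of 1.89 of its 2.42 and Mmp13 kept 1.26 of its 1.78. For Mmp12 the measured ratio was -1.22, the exchange of levels alone gave -0.07 and the exchange of class shares alone gave -1.10. The smaller share of macrophages and dendritic cells thus accounted in arithmetic for nearly all of the lower Mmp12 total. Mmp19 showed opposite signs, 0.27 from levels and -0.65 from shares, with -0.66 measured. For Mmp9 levels gave -1.42 and shares 0.45. The other members lay between -0.43 and 0.44 in both exchanges.

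**Figure D4:**
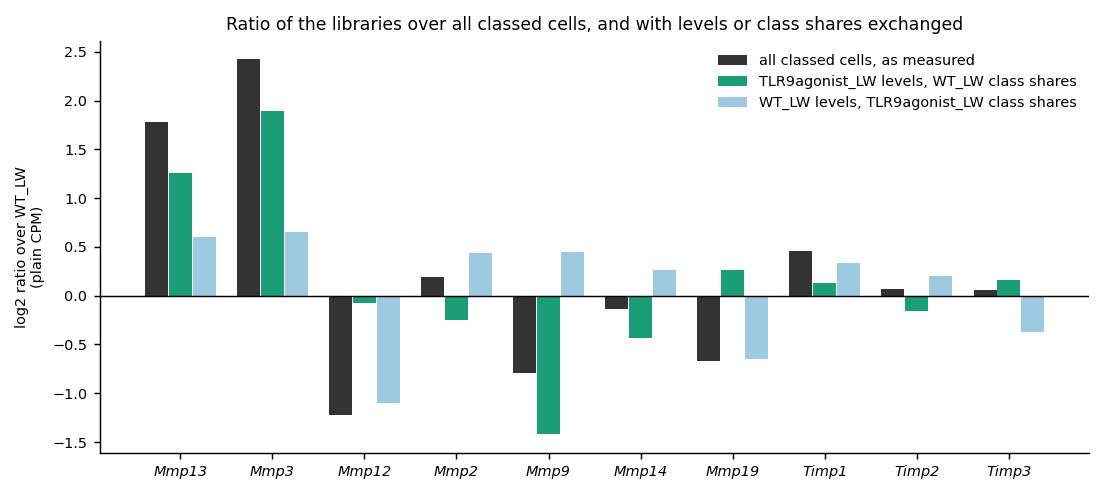
Log2 ratio of plain CPM against WT_LW for all classed cells as measured, with the levels of TLR9agonist_LW in the class shares of WT_LW, and with the levels of WT_LW in the class shares of TLR9agonist_LW. Mmp3 and Mmp13 keep most of their ratio with levels alone (1.89 and 1.26), and Mmp12 with shares alone (-1.10).

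In fibroblasts 4 of 10 members were past 2-fold, against 10.3% of 12766 genes in either direction, and 3 of them were higher, against 5.98% of genes. The median member lay at 0.11, close to the median gene. Mmp3 was at 39.8 (36.8 to 42.9) in WT_LW and 165 (161 to 170) in TLR9agonist_LW, and its relative log2 ratio of 2.35 (2.24 to 2.47) was the highest of the members. The share of fibroblasts with at least 1 Mmp3 UMI, after every cell was thinned to 1500 UMIs, was 4.55% (3.37 to 6.01) and 10.2% (9.03 to 11.5), against 0.103% and 0.951% of T cells. Without thinning the shares were 14.9% and 26.2% of fibroblasts. Thinning left out 99 and 189 shallower fibroblasts.

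Fibroblasts of the libraries fell largely into different clusters, which were made without the members. Of the gated fibroblasts, cluster 1 held 31.7% in WT_LW and 44.2% in TLR9agonist_LW, cluster 8 held 2.74% and 40.8%, and cluster 19 held 37.8% and 3.92%. Another 20.2% of those in WT_LW lay in cluster 11, a shallow cluster given no class. It had a median of 1266 UMIs, with 862 cells from WT_LW and 15 from TLR9agonist_LW. Mmp3 stood at 11.4 and 49.8 CPM in cluster 1, at 98.6 and 271 in cluster 8, where WT_LW had 31 cells, and at 54.6 and 79.7 in cluster 19. Mmp3 was thus higher in TLR9agonist_LW in each of clusters 1, 8 and 19, by a smaller factor in cluster 19. Timp3 stood at 145 and 351 in cluster 1 but at 379 and 341 in cluster 19. Mmp9 stood at 56.1 and 11.1 in cluster 1 but at 14.3 and 16.6 in cluster 19, so the ratios of these 2 genes over all fibroblasts were not shared by both clusters.

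Timp3 in fibroblasts was at 294 (286 to 302) and 497 (490 to 505), a relative ratio of 1.06 (1.01 to 1.10) that lay close to the limit. Without centring on the median gene it was 0.76, and with predicted doublets kept it also lay within 2-fold. After thinning, 26.6% and 39.9% of fibroblasts had a Timp3 UMI, and without it 60.7% and 77.8%. Mmp13 stood at 16.9 (15.01 to 18.9) and 30.5 (28.7 to 32.4), a ratio of 1.15, and at 0.85 without centring. In T cells Mmp13 reached 9.65% of the fibroblast level in WT_LW and 16.4% in TLR9agonist_LW, more than the fibroblast markers did.

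Mmp9 (gelatinase B, a protease of basement membrane collagen) was the fibroblast member past 2-fold lower. It stood at 28.1 (25.6 to 30.7) in WT_LW and 9.20 (8.21 to 10.3) in TLR9agonist_LW, a ratio of -1.31 (-1.52 to -1.10). With each cell given equal weight it lay at -0.78, within 2-fold. In T cells Mmp9 reached 25.7% of the fibroblast level in WT_LW and 34.7% in TLR9agonist_LW, more than the fibroblast markers did.

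The abundant fibroblast members lay within 2-fold. Mmp2 (0.04), Mmp14 (-0.07) and Timp2 (0.17) were near the median gene, and their plain ratios were -0.25, -0.36 and -0.13, so the signs of Mmp2 and Timp2 depended on the centring. Timp1 lay at 0.41 and Mmp19 at -0.32. Mmp12 lay at -0.62, but a single WT_LW cell held 202 of its 443 UMIs there, and without the top cell of each library the ratio was 0.07.

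Fibroblasts were also divided by fixed markers into upper (Crabp1, Prss35, Grem1, Prdm1, Tbx3; 310 and 1090 cells) and deep (Clec3b, Angptl1, Cilp, Plac8, Gpx3; 378 and 596 cells). Mmp3 belonged mainly to the deep cells, at 69.1 in WT_LW and 315 in TLR9agonist_LW, against 11.6 and 71.9 in the upper cells. The relative ratio was 2.50 in deep and 2.86 in upper cells, so Mmp3 stood higher in both, with overlapping intervals (2.37 to 2.63 and 2.48 to 3.27). Deep cells held 78.1% of fibroblast Mmp3 UMIs in WT_LW and 57.7% in TLR9agonist_LW, but they were also a smaller part of the fibroblasts there, 22.7% against 33.4% of cells and 30.2% against 44.9% of UMIs. Neither group took 443 and 944 fibroblasts.

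Mmp13 differed more between the compartments. In upper cells it stood at 9.21 and 39.1, a ratio of 2.31, and in deep cells at 30.3 and 34.3, a ratio of 0.49. Upper cells held 16.2% of fibroblast Mmp13 UMIs in WT_LW and 49.95% in TLR9agonist_LW, and were 27.4% and 41.4% of the fibroblasts. Timp3 stood at 124 and 363 in upper cells and at 404 and 662 in deep cells, past 2-fold higher in both, with ratios of 1.78 and 1.02. In deep cells the interval (0.96 to 1.08) spanned the limit, and the plain ratio was 0.71, within 2-fold.

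Mmp14 had the opposite distribution to Mmp3, at 1264 and 992 in upper cells and 795 and 424 in deep cells. Its ratio was -0.12 in upper and -0.60 in deep cells, within 2-fold in both. Mmp9 was also an upper gene, at 52.7 and 13.8 against 14.6 and 6.92 in deep cells. These differences between compartments have no replicate and were not tested.

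**Figure D5:**
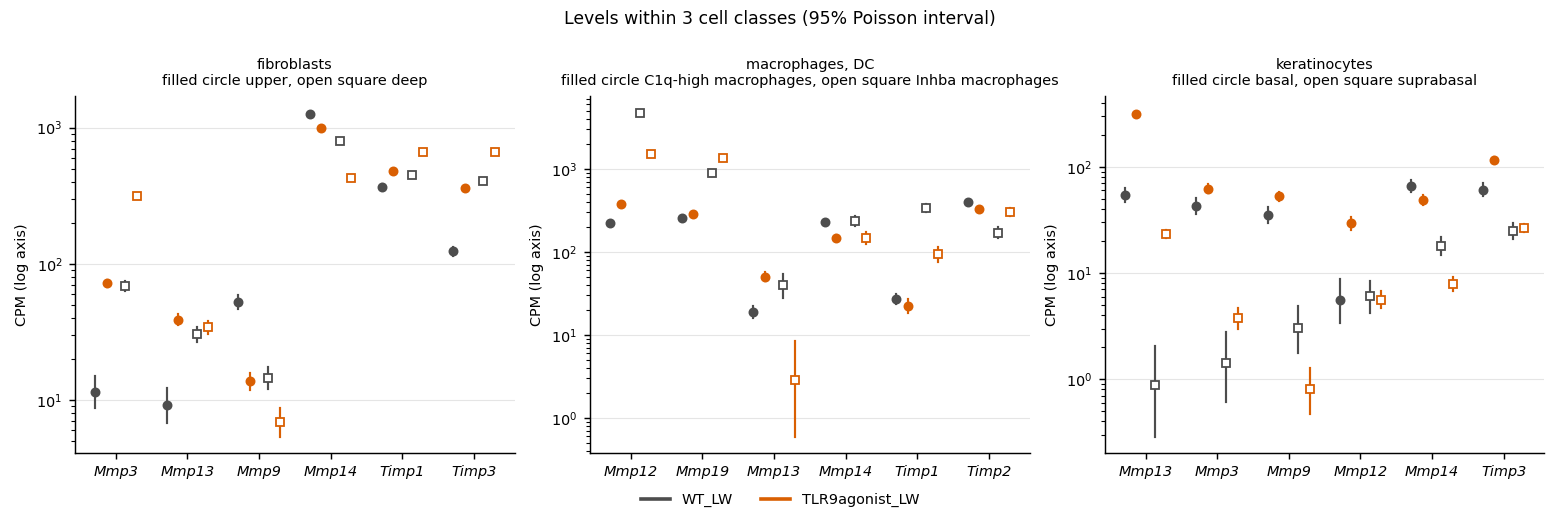
Level in CPM (log axis) with 95% Poisson intervals in 2 marker-defined groups of each class, circles and squares as named above each panel, WT_LW grey and TLR9agonist_LW orange. Deep fibroblasts exceed upper fibroblasts in Mmp3 in both libraries, Inhba macrophages exceed C1q-high macrophages in Mmp12, and basal keratinocytes hold more Mmp13 than suprabasal ones.

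In macrophages and dendritic cells 3 of 10 members were past 2-fold, against 6.79% of 10580 genes in either direction and 4.51% higher, and the median member lay at 0.20. Mmp13 stood at 14.4 (12.6 to 16.4) and 39.1 (35.0 to 43.7), a relative ratio of 1.65 (1.40 to 1.91). T cells held 12.8% of that level in TLR9agonist_LW. Mmp9 stood at 11.7 in WT_LW and 1.35 in TLR9agonist_LW, from 178 and 11 UMIs, a ratio of -2.90 (-3.93 to -2.03). Mmp3, the other member past 2-fold higher, stood at 0.9202 and 4.80, below the T cell level in both libraries, and is read as background.

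The dominant proteases of these cells differed less. Mmp12 lay at 0.18, with a plain ratio of -0.03, and Mmp19 at 0.69. Mmp14 stood at 192 and 127, a ratio of -0.38, and Timp1 at 59.7 and 35.9, a ratio of -0.53. Timp2 stood at 267 and 266. The largest cluster of these cells was cluster 2 in WT_LW (60.7% of them, against 39.7% in TLR9agonist_LW) and cluster 10 in TLR9agonist_LW (52.4%, against 26.0%). Mmp12 stood at 953 and 1221 in cluster 2 and at 45.9 and 26.9 in cluster 10, while Mmp13 stood higher and Mmp9 lower in TLR9agonist_LW in both.

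Within the class, Mmp12 was concentrated in a small group defined by Inhba, Ptgs2, Rnf128, Atp6v0d2 and Slc7a2, of 68 and 77 cells. In WT_LW this group was 4.497% of the cells and held 46.5% of the Mmp12 UMIs of the class, at 4678 (4543 to 4817) CPM. In TLR9agonist_LW it was 8.47% of the cells and held 30.9%, at 1507 (1433 to 1583). The relative ratio in these cells was -1.43 (-1.51 to -1.35), and the share with an Mmp12 UMI was 66.2% and 59.7%, so Mmp12 stood lower per cell while the group was a larger part of its class.

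The same cells differed in their other members. Mmp9 stood at 58.2 in WT_LW, from 56 UMIs, and at 0.96 in TLR9agonist_LW, from 1 UMI, a relative ratio of -5.71 (-11.04 to -3.18) that was the most negative of these. Mmp13 had 38 and 3 UMIs. Mmp19 stood at 886 and 1359, a ratio of 0.82, and Timp2 at 171 and 300.05, a ratio of 1.01 that became 0.83 without the top cells. Timp1 stood at 336 and 94.2, a ratio of -1.63, or -2.39 without the top cells, and Mmp14 at 236 and 148 lay within 2-fold.

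C1q-high macrophages (C1qa, C1qb, C1qc, Mrc1, Folr2; 773 and 582 cells) held less Mmp12, 223 in WT_LW and 379 in TLR9agonist_LW, a ratio of 0.90. A single TLR9agonist_LW cell held 671 of the 1779 UMIs, and without the top cells the ratio was 0.42. They carried most of the Mmp13 of the class, 66.7% of its UMIs in WT_LW and 74.5% in TLR9agonist_LW, at 19.0 and 50.5 CPM, a ratio of 1.54.

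Mmp12 and Mmp19 were often found in the same cell. Among macrophages and dendritic cells thinned to 5000 UMIs, 53.9% of cells with Mmp12 had Mmp19 in WT_LW, against 38.5% of those without it. In TLR9agonist_LW the shares were 69.9% (62.0 to 77.1) and 26.5% (23.0 to 30.2). Cells of 1 library are not replicates, so these are descriptions of each library.

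In keratinocytes 2 of 10 members were past 2-fold, both higher, against 11.3% of 11261 genes in either direction and 6.11% higher, and the median member lay at 0.51. Mmp13 stood at 39.6 (35.8 to 43.7) and 94.6 (91.2 to 98.2), a relative ratio of 1.75 (1.60 to 1.91). A single WT_LW cell held 208 of the 399 UMIs, and without the top cell of each library the ratio was 2.73. After thinning to 1500 UMIs, 0.919% (0.299 to 2.13) of keratinocytes had an Mmp13 UMI in WT_LW and 6.75% (5.43 to 8.26) in TLR9agonist_LW, against 0.240% and 0.656% of T cells. Without thinning the shares were 4.05% and 17.5%.

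Mmp12 was past 2-fold higher at 6.94 and 11.7, a ratio of 1.25, but its level lay below that of T cells in WT_LW, and T cells stood at 66.3% of it in TLR9agonist_LW. Its plain ratio was 0.75. Mmp3 stood at 16.0 and 17.5, Mmp9 at 19.9 and 13.0, and Timp3 at 42.9 and 51.7, all within 2-fold. The Mmp3 ratio, 0.63, was 1.22 without the top cell of each library, past 2-fold higher. Mmp14 stood at 37.0 and 18.5, a relative ratio of -0.50 and a plain one of -0.997.

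Basal keratinocytes (169 and 314 cells) stood above suprabasal ones in Mmp3, Mmp9, Mmp13 and Mmp14 in both libraries. Mmp2 stood at 20.3 and 17.7 in basal cells and at 29.1 and 27.6 in suprabasal ones. All of these Mmp2 levels except that of WT_LW suprabasal cells lay below the T cell level of the same library. They are read as background, so no Mmp2 difference between basal and suprabasal cells is drawn from them. Mmp13 stood at 54.4 in basal cells of WT_LW and 312 in those of TLR9agonist_LW, a relative ratio of 2.82 (2.60 to 3.04), or 4.13 without the top cells. Suprabasal cells (315 and 890) held 5 UMIs, or 0.888 CPM, and 494 UMIs, or 23.3 CPM. Basal cells were 22.8% of the keratinocytes of TLR9agonist_LW and held 77.4% of their Mmp13, 95.6% of their Mmp9 and 83.6% of their Mmp3 UMIs. In WT_LW they were 28.5% of the keratinocytes and held 46.4%, 59.7% and 90.7% of these UMIs. The WT_LW shares of Mmp13 and Mmp9 rest largely on single cells. Of 399 Mmp13 UMIs of WT_LW keratinocytes, basal cells held 185 and suprabasal cells 5. Most of the others were in a single cell of neither group. A single cell also held a large part of the WT_LW Mmp9 UMIs.

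Timp3 in basal cells stood at 60.8 and 116, a ratio of 1.22. Mmp12 stood at 5.58 and 29.5 in basal cells and at 6.04 and 5.61 in suprabasal ones. Its ratio of 2.70 in basal cells rests on a WT_LW level below that of T cells. Mmp9 stood at 35.3 and 52.8, a ratio of 0.88 that was 2.61 without the top cells, since few cells held most of its UMIs. In keratinocytes as a whole, 1 cell held 99 of 201 Mmp9 UMIs in WT_LW and 155 of 389 in TLR9agonist_LW.

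In TLR9agonist_LW, 134 keratinocytes thinned to 5000 UMIs had Mmp13. Of these 9.70% (5.27 to 16.0) had Mmp9, against 0.193% (0.0233 to 0.694) of the 1038 without Mmp13, and 14.9% against 3.47% had Mmp3. In WT_LW only 11 keratinocytes had Mmp13 by this measure, and 8 of them had Mmp3.

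Neutrophils, a known store of Mmp9, were too few to be ranked, with 35 and 151 cells. They held 26 Mmp9 UMIs in WT_LW, or 290 CPM (189 to 425), and 18 in TLR9agonist_LW, or 48.5 (28.7 to 76.6), above every ranked class in both libraries.

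Proteases and inhibitors were compared as summed UMIs. The 7 proteases had 0.894 UMIs per TIMP UMI in all classed cells of WT_LW (0.884 to 0.904) and 0.777 (0.770 to 0.785) in TLR9agonist_LW. In fibroblasts the ratio was 0.864 and 0.709, in macrophages and dendritic cells 3.57 and 4.14, and in keratinocytes 1.77 and 2.08. The keratinocyte sums include Mmp19, Timp1 and Timp2, read above as background in both libraries. They also include Mmp12 in WT_LW and Mmp2 and Mmp14 in TLR9agonist_LW, read in the same way. Timp2 alone gave 355 of 886 TIMP UMIs in WT_LW and 770 of 2650 in TLR9agonist_LW. Single cells held large parts of the WT_LW Mmp13 and Mmp9 UMIs. These keratinocyte ratios thus rest in part on background and single cells. Schwann cells had the lowest ratio of the ranked classes in both libraries, 0.211 and 0.149. Fibroblasts thus had fewer protease UMIs per TIMP UMI in TLR9agonist_LW, although Mmp3 stood higher, because Mmp2, Mmp14, Timp1, Timp2 and Timp3 make up most of the sums.

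The neighbours of Mmp3 and Mmp13 on chromosome 9 were read alongside them. Between 7272514 and 7699585 lie 10 matrix metalloproteinase genes, 6 of which had at least 50 UMIs in fibroblasts. Against 5.98% of fibroblast genes, 5 of these were past 2-fold higher, among them Mmp3 and Mmp13, whose ratios were the reason to look here. They were Mmp3, Mmp13, Mmp10, Mmp8 and Mmp27. Mmp10 (stromelysin-2) stood at 2.21 and 6.397 with a ratio of 1.83, and Mmp27 at 5.92 and 19.7 with a ratio of 2.03. In T cells of TLR9agonist_LW, Mmp10 reached a larger part of its fibroblast level than the fibroblast markers did. Mmp8 rested on few UMIs, at 0.697 and 1.92. Mmp12, in the same stretch, was not past 2-fold, at -0.62. That ratio depended on the single cell named above, and its sign changed in 3 of 8 alternatives. No test of position was made.

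Other matrix metalloproteinases were a fixed list of 16 genes, of which 8 counted in fibroblasts with 3 past 2-fold higher and 1 lower, against 10.3% of genes in either direction, at a median relative ratio of 0.57. The 3 were among the chromosome 9 neighbours above. Mmp23 (244 and 279), Mmp11 (78.3 and 99.8) and Mmp16 (60.8 and 27.7) had the most UMIs and lay within 2-fold, and Mmp15, at 4.06 and 1.30, was lower. In keratinocytes Mmp10, Mmp11 and Mmp23 were past 2-fold higher among the 4 counted, all at low levels of 0.992 to 5.83. Mmp11 and Mmp23 lay below their T cell levels there in both libraries, and Mmp10, at 4.07 in TLR9agonist_LW, was close to the 3.75 of T cells. In macrophages and dendritic cells Mmp25 was past 2-fold lower, at 3.02 and 1.23, of 3 counted, but T cells held more, 5.58 and 7.01. Reck, a membrane-anchored inhibitor, was the only other inhibitor counted, in fibroblasts at 28.8 and 29.5.

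Plasminogen activation, the pathway by which plasmin is made and several MMP precursors are opened, had 6 of 8 genes counted in each class, with a median relative ratio of 1.24 in keratinocytes, 0.30 in macrophages and dendritic cells and 0.24 in fibroblasts. In keratinocytes 4 were past 2-fold higher. Serpinb2, an inhibitor of urokinase, stood at 211 and 1548, the urokinase gene Plau at 12.7 and 24.7, its receptor Plaur at 22.3 and 36.7, and Plat at 7.64 and 12.9. In fibroblasts Plau (5.80 and 12.9, against 2.26 and 4.76 in T cells) was past 2-fold higher, while Plat and Serpine2 lay within 2-fold. Serpinb2 was also past 2-fold higher in fibroblasts (8.30 and 53.0) and in macrophages and dendritic cells (5.72 and 72.1), but T cells held 3.64 and 71.3, so its TLR9agonist_LW levels outside keratinocytes are at or near the background. Plaur was level in macrophages and dendritic cells at 324 and 332.

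Of 15 ADAM and ADAMTS proteases, Adamts1 was past 2-fold higher in fibroblasts (195 and 338), keratinocytes (106 and 246) and macrophages and dendritic cells (8.28 and 19.7), although T cells held more than the last of these, 11.8 and 22.5. Adamts2 (360 and 361) and Adamts5 (261 and 244) were the other abundant ones in fibroblasts and lay within 2-fold. Adamts9 and Adamts14 were past 2-fold lower in keratinocytes, at 9.42 and 2.63 and at 4.66 and 1.30, the TLR9agonist_LW levels being near those of T cells, 2.69 and 1.19. The median of the list was near the median gene in all 3 classes, from 0.01 to 0.11. Among 7 cathepsins, Ctsl (399 and 946) and Ctsk (32.4 and 102) were past 2-fold higher in macrophages and dendritic cells, where Ctss and Ctsb had the most UMIs and lay within 2-fold. Ctss was past 2-fold lower in fibroblasts, at 42.7 and 16.6, and in keratinocytes, at 36.3 and 10.2, where Ctsk, at 8.43 and 12.7, was past 2-fold higher. These Ctss levels lay far below those of 2767 and 2087 in macrophages and dendritic cells and also below the 117 and 67.8 of T cells, as the Ctsk levels in keratinocytes lay below 11.3 and 26.1. The cathepsin median was 0.13 in macrophages and dendritic cells and 0.37 in both other classes. None of the genes for MMP activation and clearance that were counted (Furin, Pcsk5, Pcsk6, Bsg, Lrp1) lay past 2-fold in these classes.

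Genes known to respond to cell dissociation differed between the same libraries. The heat shock genes Hspa1a, Hspa1b and Dnajb1 were past 2-fold higher in TLR9agonist_LW in all classed cells and in each of the 3 classes. In fibroblasts Hspa1a stood at 954 and 2631 and Dnajb1 at 236 and 884, and of the AP-1 genes Junb stood at 591 and 1337 and Fos at 1284 and 1067. In all, 5 of 10 genes of that list were past 2-fold higher in fibroblasts and 3 of 10 in the other classes, with medians of 0.26 in keratinocytes, 0.22 in macrophages and dendritic cells and 0.87 in fibroblasts. Their part in the Mmp3 and Mmp13 values was not tested.

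Likeness to a member was described by the correlation of log2(CPM + 1) over 18 sums, 9 classes in each of 2 libraries, among 11698 genes. The points share libraries and cell classes, so the values only rank genes by their distribution over cell types. Mmp12 was most like Cybb, Trem2 and Lyz2 (0.95 to 0.96), all macrophage genes. Mmp19 was most like Psap, Pid1 and Ctsa, and Mmp2 most like Fzd2, Col1a2 and Col1a1 (0.93 to 0.96). Cybb and Lyz2 were among the markers that defined macrophages and dendritic cells, and Col1a1 and Col1a2 among those of fibroblasts. Their likeness is thus in part built into the classes. Mmp14 was most like Timp2 (0.93), followed by Yif1b and Fcgrt, and Timp2 was most like Cmtm3, Cpq and Fcgrt.

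Mmp3 was most like Arhgdig, Smoc2 and Igfbp2 (0.89 to 0.91), Mmp13 most like Polb, Ereg and Scpep1, and Mmp9, with the lowest likeness, most like Bag1, Gjb5 and Zfp385a (0.77 to 0.85). Timp1 was most like Slc39a7, Ikbip and Fam114a1, and Timp3 most like Tulp3, Tead1 and Parva (0.97). Among the members, Mmp14 with Timp2 (0.93) and Mmp12 with Mmp19 (0.87) were the closest pairs, and Mmp3 with Mmp13 stood at 0.74.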

How the data were processed

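Healed wound skin was separated enzymatically into epidermis and dermis, the dermis was digested with collagenase and trypsin, dead cells were removed, and droplet 3′ libraries were made. The deposited values are unnormalized UMI counts, which the authors made with Cell Ranger (4.0.0 in the file headers). The submitters' processing notes also name fastp, Seurat and the build mm9. The chemistry is given as v2 or v3. Positions here come from GENCODE M21 (GRCm38) by Ensembl identifier, with 27645 of 27998 matched, and promoters from RefSeq tables. The files hold 12800 and 13751 cells.

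Cells with under 500 UMIs, under 300 genes or over 15% mitochondrial UMIs were left out, and so were 1048 and 1395 doublets predicted by Scrublet as in scanpy at an expected 0.8% per 1000 cells. Cells were classed from fixed marker lists that hold no member, by score with a margin of 0.05 to the next class and at least 3 markers detected. Cells were also clustered (Leiden) on variable genes without the members and with no correction between libraries. UMIs were summed per class and library and divided by the class total to give counts per 1000000 (CPM). Levels have exact Poisson intervals, shares Clopper-Pearson intervals, and ratios an interval from the binomial share of both counts. PCR and sequencing error, mice and handling are not covered by them. Named genes were all members, the 3 genes most like each, and of every other list the 3 with the most UMIs and those past 2-fold in the class described. Members and lists were chosen with earlier results of these data known. Alternatives were a stricter cell filter, doublets kept, classes from clusters, a wider gate margin, equal weight per cell, no centring, a minimum of 200 UMIs and, chosen after seeing the data, leaving out the top cell of each library. The ratio script was tested on simulated data. Python 3.11.15, scipy 1.17.1, pandas 2.3.3 and scanpy 1.11.5 were used.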

Additional observations from a re-analysis of the deposited data

Results flagged for a closer look

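Cells that met no class were outside every comparison above, and they also held Mmp3 and Mmp13. In the TLR9agonist_LW library they held 26.5 CPM of Mmp3, against 2.60 in WT_LW, and 20.4 of Mmp13, against 5.02. Both stood out as values in cells not used above that exceeded those of the control library. A single cell held 201 of the 296 Mmp3 UMIs. The difference was not tested, since each group has 1 library.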

How the results depend on the processing

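No paired analysis was possible because each group has 1 library. Over all classed cells the number of members past 2-fold was 2 or 3 under every alternative run, always with Mmp3 and Mmp13. In fibroblasts 4 members became 2 (Mmp3 and Mmp9) without centring on the median gene, which shifts every ratio by the same amount. In macrophages and dendritic cells 3 became 1 (Mmp13) with a minimum of 200 UMIs, because the others no longer counted. In keratinocytes 2 became 4 (Mmp3, Mmp12 and Mmp13 higher, Mmp19 lower) without the top cell of each library, and Mmp12 there lay within 2-fold without centring or with equal weight per cell. The number of members with the same leading class, 8, was 9 with the stricter cell filter and 10 with equal weight per cell. No ratio past 2-fold changed sign. Of 78 ratios of a member in a class, 48 stayed within their counting interval with equal weight per cell, 60 with classes from clusters and 25 without median centring. Depth limits the low levels: Mmp3 in macrophages rested on 14 and 39 UMIs.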
